A study of Mus musculus with 140 samples.

Results

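The miRNAs described here are the mouse miR-297, miR-466, miR-467 and miR-669 families, most of which are encoded together in 1 intron of the gene Sfmbt2. Members were all table entries named miR-297, miR-466, miR-467 or miR-669 with a letter or a hyphen directly after the number. This rule used names only and took 68 of 1474 miRNAs: 6 of the miR-297 family, 29 of miR-466, 11 of miR-467 and 22 of miR-669. The study sequenced small RNA from kidneys of male wild-type C57BL6/OlaHsd mice, and its question was what septic kidney injury does to miRNAs in the small vessels. Sepsis was modelled by cecal ligation and puncture (CLP), in which the cecum is tied off and pierced, and sham mice were its controls. From each of 28 mice there were 5 libraries: 1 of whole kidney and 4 of compartments cut out by laser microdissection, namely glomeruli, arterioles, post-capillary venules and peritubular capillaries. The 7 groups of 4 mice were CLP at 4, 24 and 72 h, sham at 4, 24 and 72 h, and healthy controls at 0 h. Every group had the same strain, sex and genotype, and nothing in the labels marks pooled animals.

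MicroRNAs are short RNAs cut from a hairpin precursor, whose 5p and 3p arms can each guide silencing of messenger RNAs that pair with bases 2 to 8, the seed. Sfmbt2 encodes a Polycomb-group protein and is expressed from the paternal copy in mouse extraembryonic tissue, and the rodent-specific miRNA cluster in its intron is best known from the placenta. In mouse work, miR-669a restrains skeletal muscle differentiation, miR-669c rises with age in liver, and miR-467b targets lipoprotein lipase in macrophages.

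RefSeq annotates 81 precursors of the 4 families on GRCm38.p6, and 71 of them lie inside Sfmbt2 (chr2:10370440-10595253). All 71 are on the strand of Sfmbt2 and fall within its intron 10 (chr2:10461473-10523944), where they span 51.6 kb. By family, these are 5 precursors of miR-297, 23 of miR-466, 14 of miR-467 and 29 of miR-669. miR-669a has 12 precursors, miR-467a has 10 and miR-466b has 8, whereas miR-669c, miR-467c and miR-467d each have 1. The other 10 precursors lie elsewhere. Mir466i (chr13:17747473-17747593, plus strand) is in an intron of Cdk13, which runs on the minus strand. Mir466q is in an intron of Tnik, Mir669n of Slc30a7, Mir467f of Fxr2 and Mir467g of Grk4. Mir466k is in an intron of a predicted gene, and Mir466j, Mir466f-4, Mir297-1 and Mir467h are intergenic.

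**Figure D1:**
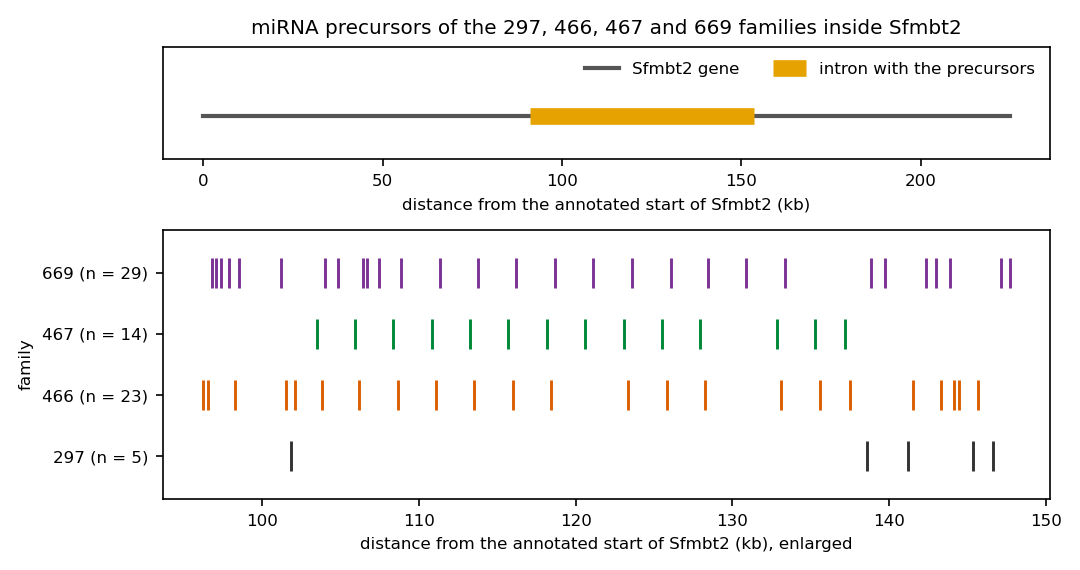
The upper line is Sfmbt2 drawn by distance from its annotated start (kb), with the intron that holds the precursors as a box. Below, each tick is 1 precursor, in rows by family; the 71 ticks span 51.6 kb, with miR-669 (29 ticks) and miR-466 (23 ticks) spread along the whole stretch.

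The mature sequences below are from RefSeq (GRCm38.p6), which gave one for 6 of the 68 members, all from precursors outside Sfmbt2. They are shown for the repeats they carry, runs in which U alternates with G, or C with A. Capitals mark the seed, bases 2 to 8. The first is the other arm of miR-466i-5p, the member called lower in whole kidney than in the microdissected compartments. That call, given below, was set in part by the filter on low counts, and in healthy mice it rests on the denominator. In late sham mice whole kidney lay below peritubular capillaries under both denominators.
miR-466i-3p: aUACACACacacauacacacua
miR-466q: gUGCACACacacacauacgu
miR-466j: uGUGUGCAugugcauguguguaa
miR-466k: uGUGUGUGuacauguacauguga
miR-467h: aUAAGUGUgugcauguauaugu
miR-669n: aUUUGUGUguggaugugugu
No seed is shared among these 6. The longest alternating run was 11 bases in miR-466i-3p, at chr13:17747552-17747573, and 12 bases in miR-466q, at chr3:28419988-28420007. The runs were 7 bases in miR-466j and miR-467h, 8 in miR-669n and 9 in miR-466k. Of the 1247 table names with a RefSeq sequence, 3 miRNAs outside the families also held a run of 10 bases or more, and they served as an outside comparison by sequence.
miR-574-5p: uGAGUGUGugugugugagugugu
miR-1187: uAUGUGUGuguguauguguguaa
miR-3082-5p: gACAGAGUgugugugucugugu

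Several member rows could not be told apart in the counts. The 68 rows held 59 distinct count profiles, and 16 rows fell into 7 sets with the same count in all 140 libraries. miR-669a-3p equalled miR-669o-3p, miR-669a-5p equalled miR-669p-5p, and miR-466b-3p, miR-466c-3p and miR-466p-3p formed 1 set. Below, such a set is given by its first name, its values are uncertain as to which copy they come from, and family sums are given with every row added and with each set added once. Rows with nearly but not fully identical counts stay separate in both sums, so shared reads may still be added more than once. Counts were raw reads per mature miRNA; levels are CPM, counts per 1000000 of the library's miRNA counts, either plain or scaled by TMM, edgeR's library scaling, and are not divided by length.

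Depth limited what could be seen. miRNA counts per library were 1412288 to 7921184 in whole kidney, 77258 to 1352025 in glomeruli, 19307 to 569283 in arterioles, 15148 to 567040 in post-capillary venules and 4215 to 49456 in peritubular capillaries. With 0 counts, a level of up to 2.12 CPM remained possible in the shallowest whole kidney library and up to 712 CPM in the shallowest peritubular capillary library (3 counts of the total, counting error only). Lists of marker miRNAs followed the labels in part. Smooth muscle markers summed to 506422 CPM in pooled arterioles against 58889 CPM in whole kidney, and glomerular markers to 11732 CPM in glomeruli against 1290 CPM in whole kidney. The endothelial list summed to 54575 CPM in glomeruli and 32017 CPM in arterioles, but to 23906 CPM in peritubular capillaries and 24943 CPM in venules, below the 29056 CPM in whole kidney. The tubular list summed to 26325 CPM in peritubular capillaries and 20960 CPM in venules, against 35038 CPM in whole kidney. Of all pooled counts, entries starting with #, which name no miRNA, made up 84.8% in glomeruli, 90.3% in arterioles, 93% in venules and 98.8% in peritubular capillaries, against 3.99% in whole kidney. Library sizes exclude these entries. In such bulk samples, fewer cells of a type and less RNA per cell cannot be told apart.

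In whole kidney, the families were mostly a few 5p miRNAs. All 68 members had a count somewhere, but 13 had fewer than 10 in all 140 libraries together, and 16 members, or 12 profiles, had one in all 28 whole kidney libraries. Counted once per set, whole kidney held 24460 member counts, of which the miR-669 family took 62.9%, miR-467 took 27.1%, miR-466 took 9.61% and miR-297 took 0.343%. Rows with nearly equal counts were still added separately, such as miR-467a-5p (965) and miR-467b-5p (967), or miR-466b-3p (480) and miR-466e-3p (482). Reads shared between such rows may thus raise the miR-467 and miR-466 shares. The 5 highest profiles took 72.5%. Rows ending in 5p took 78% of these counts and rows ending in 3p took 20.8%.

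The arm that was counted differed between stems. Among 27 stems with both arms in the table, 16 had more 5p counts and 11 had more 3p counts over all libraries. miR-669c had 11235 counts of its 5p arm and 6 of its 3p arm, and miR-467c had 2929 of 5p and 2 of 3p. miR-467a had 1067 counts of 5p and 52 of 3p. The direction was the other in miR-466b, with 74 counts of 5p and 551 of 3p. miR-669a-5p and miR-669a-3p were close, at 3537 and 4185 counts. Arm names come from the table, and the sources used here do not say how reads matching several copies were assigned.

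The most abundant member in whole kidney was miR-669c-5p, at rank 230 of 1474 by mean CPM. It was followed by miR-669a-3p at rank 270, while miR-466i-5p stood at rank 507. Over the 28 whole kidney libraries, miR-669c-5p averaged 66.5 ± 13.3 TMM-scaled CPM (SD), miR-669a-3p 30.1 ± 7.06 and miR-669a-5p 21.7 ± 3.94. The sum of all 68 rows averaged 277 ± 34.8 TMM-scaled CPM, or 214 ± 26.7 with identical rows added once (SD, n = 28).

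The question put to these miRNAs first was whether CLP kidneys differed from sham kidneys. For miR-669c-5p at 4 h, whole kidneys had 79.6, 73.1, 35.4 and 54.7 TMM-scaled CPM after CLP, against 43.2, 75.3, 47.1 and 51.3 after sham. At 24 h the values were 78.7, 76.2, 75 and 81.2 after CLP, against 66.2, 71, 77.5 and 76.8 after sham. At 72 h they were 70.4, 79.6, 65.2 and 62.6 after CLP, against 74.1, 71.4, 64.3 and 89.8 after sham. CLP and sham mice overlapped at every time. Healthy kidneys had 60.2, 61.1, 48.7 and 52.2, inside the range of the 4 h groups. The log2 fold change of CLP over sham was 0.16 ± 0.19 (SE) at 4 h, 0.09 ± 0.18 at 24 h and -0.11 ± 0.18 at 72 h, with adjusted p of 0.999, 0.87 and 0.843 in edgeR's quasi-likelihood test. The 95% intervals of these 3 changes together ran from -0.48 to 0.55, so larger shifts of miR-669c-5p lie outside them. At 4 h the sign turned on 1 mouse, to between -0.09 and -0.02 without sham replicate 1, CLP replicate 1 or CLP replicate 2.

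miR-669a-3p, which shares all its counts with miR-669o-3p, had 32.5, 50.5, 28.6 and 34.1 TMM-scaled CPM in CLP whole kidneys at 4 h, against 48.3, 21.7, 31.9 and 35.9 in sham. At 24 h it had 33.9, 32, 20.8 and 33.6 in CLP kidneys, against 31.2, 23.5, 24.5 and 29.9 in sham kidneys. At 72 h it had 28.8, 30.2, 23.7 and 26.1 in CLP kidneys, against 28.9, 23.1, 19.6 and 25.9 in sham kidneys. The groups overlapped at each time, and the log2 fold changes were 0.06, 0.13 and 0.16 (SE 0.21, 0.20 and 0.20; edgeR adjusted p 0.999, 0.849 and 0.785). At 4 h this sign too rested on single mice, reaching -0.20 without CLP replicate 2.

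miR-669a-5p averaged 22.1 ± 3.92 TMM-scaled CPM in CLP kidneys and 19.5 ± 5.43 in sham kidneys at 4 h. At 24 h it averaged 25.9 ± 3.82 in CLP and 21.1 ± 4.06 in sham, and at 72 h 22.7 ± 4.23 in CLP and 19.6 ± 2.46 in sham (SD, n = 4 each). The log2 fold changes were 0.16, 0.29 and 0.21 (edgeR adjusted p 0.999, 0.629 and 0.733), with overlapping groups throughout. Healthy kidneys averaged 21.2 ± 1.47.

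The miR-467 family gave 4 of the more abundant members. miR-467c-5p averaged 17.1 ± 3.41 TMM-scaled CPM in CLP kidneys and 22.9 ± 7.6 in sham kidneys at 4 h. The averages were 25.5 ± 3.73 in CLP and 24.5 ± 3.31 in sham at 24 h, and 24.3 ± 4.59 in CLP and 21.4 ± 3.28 in sham at 72 h (SD, n = 4 each). Its log2 fold change at 4 h was -0.44 ± 0.23 (SE; edgeR p 0.0619, adjusted p 0.999). miR-467d-5p averaged 12 ± 3.58 in CLP and 12.2 ± 1.92 in sham at 4 h, 14.3 ± 4.77 in CLP and 16.8 ± 1.93 in sham at 24 h, and 14.5 ± 4.05 in CLP and 13 ± 1.43 in sham at 72 h. miR-467a-5p and miR-467b-5p, which differed by 2 counts in all, had a log2 fold change of -0.66 ± 0.37 at 4 h, 0.24 ± 0.32 at 24 h and 0.55 ± 0.32 at 72 h (SE). All CLP and sham groups of these 4 overlapped.

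Among miR-466 members, the 3p arms led in whole kidney. miR-466b-3p had 4.7, 8.64, 8.85 and 3.51 TMM-scaled CPM in CLP kidneys at 4 h, against 10.5, 5.41, 7.62 and 7.72 in sham kidneys. At 24 h its CLP kidneys lay between 2.16 and 6.03 and its sham kidneys between 2.96 and 4.7, and at 72 h between 2.57 and 4.42 in CLP and between 2.28 and 4.95 in sham. miR-466e-3p had 553 counts against 551 for miR-466b-3p and took nearly the same values. miR-466f-3p stayed low, with group means of 0.556 to 1.37 in CLP kidneys and 0.606 to 1.49 in sham kidneys. No CLP group of these lay apart from its sham group.

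**Figure D2:**
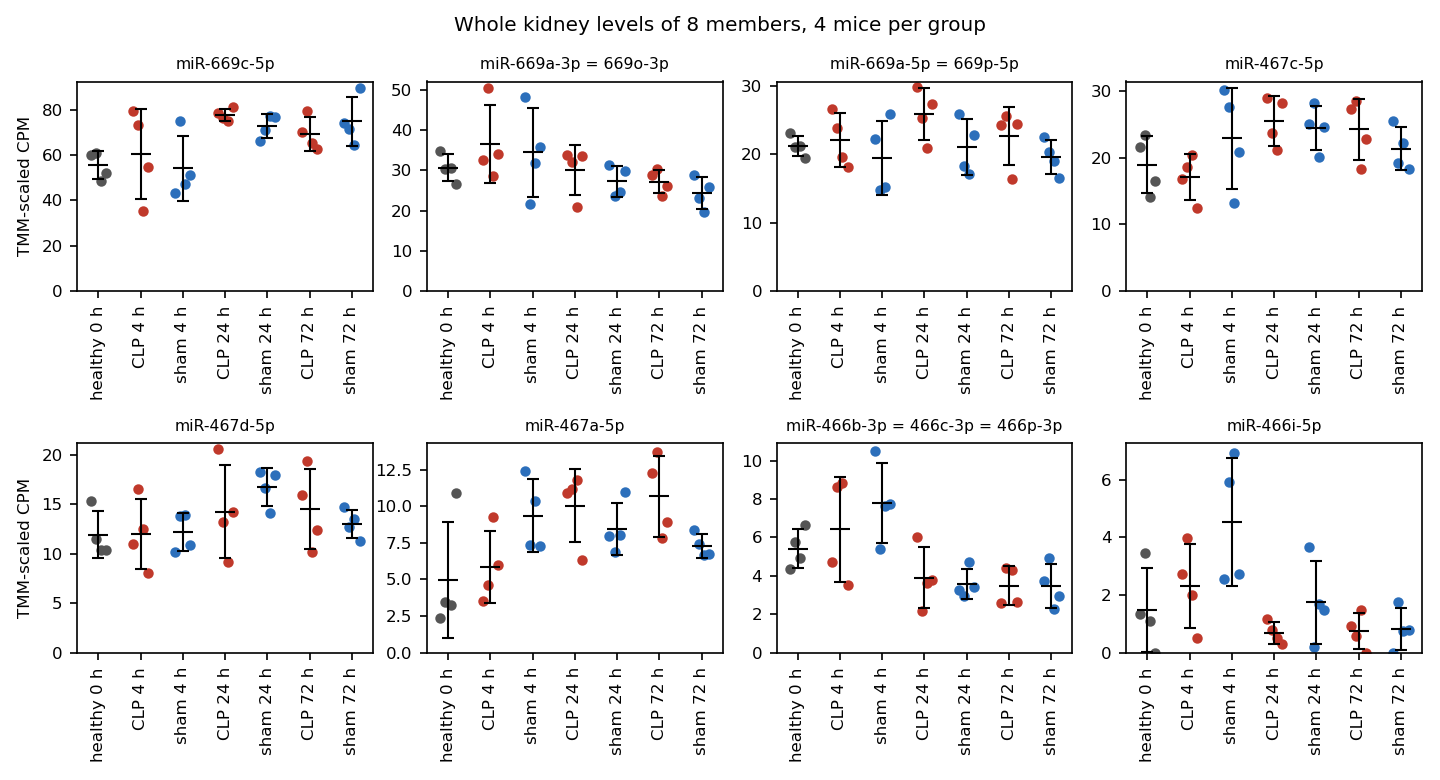
Whole kidney levels of 8 members (TMM-scaled CPM, linear axes from 0) by group, with 4 mice each as points and the mean and SD as bars. CLP and sham points overlap at each time, for example 62.6 to 79.6 in CLP and 64.3 to 89.8 in sham for miR-669c-5p at 72 h.

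Across whole kidney, 0 of the 21 members tested passed an adjusted p of 0.05 at any time (edgeR, adjusted over all 542 miRNAs tested). Over all miRNAs, 0.185% were called at 4 h, 0.738% at 24 h and 1.85% at 72 h. The members' median log2 fold change was -0.26 at 4 h, against -0.00 over all miRNAs tested, then 0.13 against -0.05 at 24 h and 0.12 against 0.03 at 72 h. At 4 h 7 members lay above 0 and 14 below, at 24 h 19 above and 2 below, and at 72 h 14 above and 7 below. Over all miRNAs tested, 262 lay above and 280 below at 4 h, 244 and 298 at 24 h, and 291 and 251 at 72 h. These member medians and tallies take rows with identical or nearly identical counts as separate members, so the same reads enter more than once. The 95% intervals of the members had a median half-width of 0.69 log2 units, from 0.37 to 1.68. miR-669f-5p, picked out after its values were seen, was the only member under an unadjusted edgeR p of 0.05, at 4 h. Over all 542 miRNAs tested, 23 were under it at 4 h, 46 at 24 h and 68 at 72 h. miR-669f-5p had 3.53, 2.66, 2.41 and 0.501 TMM-scaled CPM in CLP kidneys at 4 h, against 5.81, 4.43, 4.85 and 4.54 in sham kidneys, groups that did not overlap. Its log2 fold change was -1.08 ± 0.47 (SE; edgeR p 0.0277, adjusted p 0.882).

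**Figure D3:**
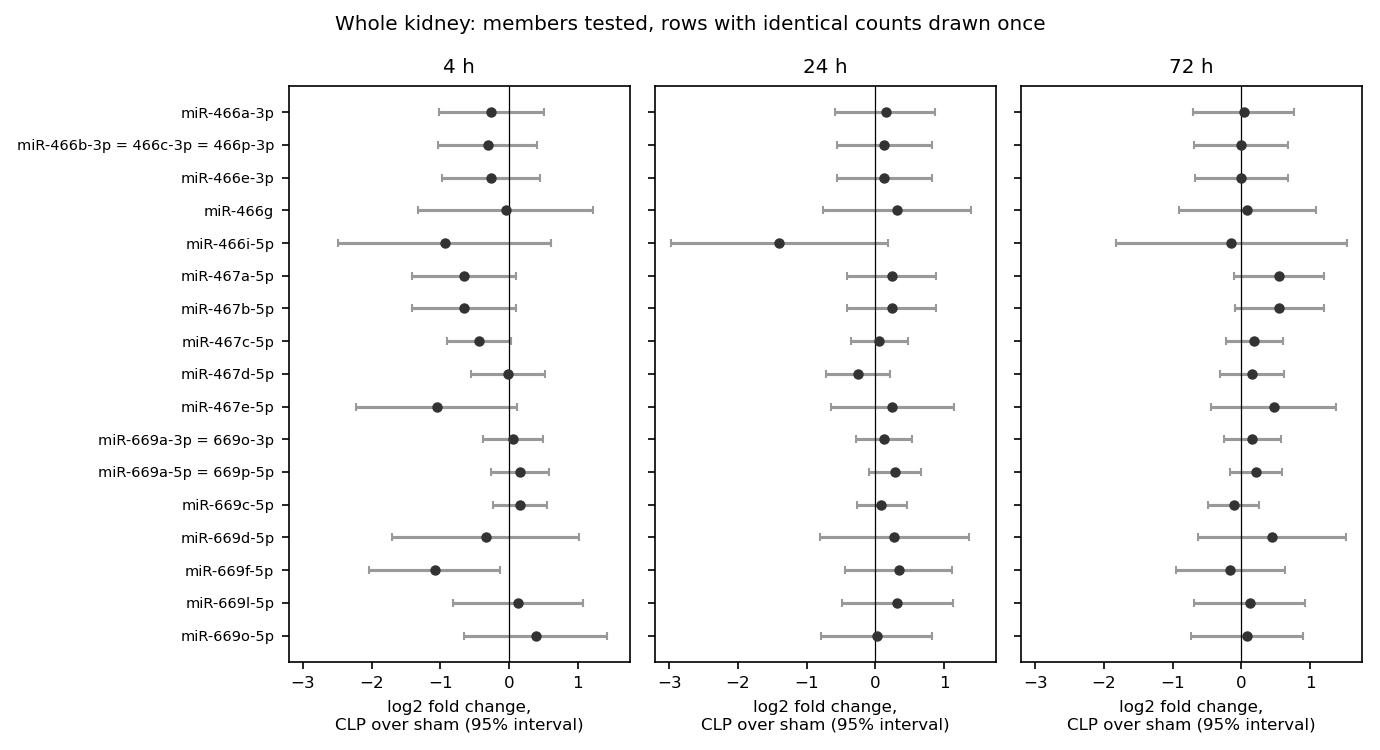
Log2 fold change of CLP over sham in whole kidney for each member tested, rows with identical counts drawn once, at 4, 24 and 72 h; points are estimates and bars 95% intervals. The interval of miR-669f-5p at 4 h (-2.04 to -0.13) lies below 0, though its adjusted p was 0.882 in edgeR's test, and the others cross 0.

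Family sums were described without a test. The sum of all rows was 277 ± 48.8 TMM-scaled CPM in CLP and 294 ± 38.4 in sham whole kidneys at 4 h. It was 304 ± 38.4 in CLP and 274 ± 23.3 in sham at 24 h, and 281 ± 39.9 in CLP and 258 ± 20.1 in sham at 72 h (SD, n = 4 each). Healthy kidneys had 253 ± 21. With identical rows added once, CLP kidneys had 204 ± 35.7, 239 ± 26.4 and 222 ± 32.7 at 4, 24 and 72 h, and sham kidneys 222 ± 22.8, 217 ± 15.8 and 205 ± 14.4. The miR-669 sum was 193 ± 41.2 in CLP and 179 ± 21.8 in sham at 4 h, 209 ± 25.9 in CLP and 185 ± 17.9 in sham at 24 h, and 186 ± 23.4 in CLP and 178 ± 16.7 in sham at 72 h. The miR-467 sum was 43.9 ± 9.71 in CLP and 59.4 ± 11.1 in sham at 4 h, 65.6 ± 7.32 in CLP and 63.5 ± 6.15 in sham at 24 h, and 65.9 ± 15.2 in CLP and 54.3 ± 6.26 in sham at 72 h. The miR-466 sum was 39.7 ± 14.7 in CLP and 52.5 ± 9.4 in sham at 4 h, 28.9 ± 9.62 in CLP and 25.5 ± 2.94 in sham at 24 h, and 27.8 ± 5.08 in CLP and 24 ± 6.1 in sham at 72 h. For the miR-669, miR-467 and miR-466 sums and the total, CLP and sham mice overlapped at each time. The miR-297 sum was between 0.299 and 1.25 on average in CLP groups and between 0.168 and 2.58 in sham groups, a few counts per library.

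The microdissected compartments allowed fewer tests. In arterioles 6 members were tested and 0 passed, where 0.36% of all 278 miRNAs did at 4 h, 0% at 24 h and 0% at 72 h. In glomeruli 10 members were tested and 0 passed, where 0.592% of 338 miRNAs did at 4 h, 0% at 24 h and 0.592% at 72 h. In peritubular capillaries 2 members were tested and 0 passed, where 0% of 201 miRNAs did at 4 h, 0.498% at 24 h and 0.995% at 72 h. In post-capillary venules 6 members were tested and 0 passed, where 0% of 285 miRNAs did at 4 h, 0% at 24 h and 1.4% at 72 h. Over the 15 CLP comparisons this made 0 calls in 135 edgeR tests of members, of which 7 had an unadjusted p under 0.05, and 27 calls in 4932 tests of all miRNAs. With identical rows taken once, the 7 are 6. Over all miRNAs, the number under an unadjusted edgeR p of 0.05 ran from 4 of 278 in arterioles at 24 h to 68 of 542 in whole kidney at 72 h. DESeq2 called 1 member and put 4 under an unadjusted p of 0.05. The matching DESeq2 numbers over all miRNAs were not counted. Median half-widths of the members' 95% intervals were 2.58 log2 units in glomeruli, 2.80 in arterioles, 2.97 in peritubular capillaries and 3.02 in venules.

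In glomeruli at 4 h, miR-669c-5p had 170, 184, 103 and 71.9 plain CPM after CLP, against 41.3, 90.6, 16 and 31.2 after sham. The groups overlapped only through the lowest CLP and the highest sham mouse, and the log2 fold change was 1.77 (edgeR p 0.015, adjusted p 0.17), with adjusted p of 0.11 to 0.374 over 13 alternative settings. In whole kidney of the same mice it was 0.16, and the difference between these was not tested. miR-467d-5p had 0 counts in all 4 CLP glomerular libraries at 24 h, against 25, 25.1, 54.8 and 12.5 TMM-scaled CPM in sham. With counts pooled by group, the sham level was 12.7 times the floor that 3 counts would set in CLP. That floor covers the counting error of the CLP zeros only. It leaves out the counting error of the sham counts and the spread between mice, so 12.7 is not a lower bound. The edgeR p was 0.0049 and the adjusted p 0.15, and 0.0509 to 0.441 over the alternatives.

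Other single results rested on few counts. In arterioles at 4 h, miR-669a-3p had 8, 4, 2 and 0 counts after CLP, against 0 in all 4 sham libraries. On pooled counts, the CLP level, from 14 counts, was 1.9 times the same floor in sham (edgeR p 0.0361, adjusted p 0.386). With so few counts this is not a lower bound, and a CLP library had no count either. In peritubular capillaries at 72 h, miR-669c-5p had 0 counts in all 4 CLP libraries, against 0, 0, 246 and 564 TMM-scaled CPM in sham. On pooled counts, the sham level was 8.5 times the same floor in CLP (edgeR adjusted p 0.46), again with the counting error of the sham counts left out. Mouse by mouse no such value holds, since sham libraries without a count were among them. In venules at 72 h, miR-466i-5p had 82.1, 6.45, 113 and 45.5 TMM-scaled CPM after CLP, against 0, 17744, 53.7 and 92 after sham. The second sham library held 157 counts of it among only 15148 miRNA counts. The log2 fold change was -6.08 (edgeR p 0.00229, adjusted p 0.13), and DESeq2 called it at -6.44 (adjusted p 0.0325). Without that library the log2 fold change was 0.44 (edgeR adjusted p 1).

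Operation and time were compared in whole kidney. Sham kidneys at 4 h against healthy kidneys gave 0 of 21 members called, with 0.185% of all miRNAs called. miR-467a-5p, identical here to miR-467b-5p, had 12.4, 7.38, 10.4 and 7.26 TMM-scaled CPM in sham kidneys at 4 h, against 2.34, 3.46, 3.28 and 10.9 in healthy kidneys. The log2 fold change was 0.94 ± 0.38 (SE; edgeR p 0.0192, adjusted p 0.651). The fourth healthy mouse lay among the sham mice, and without it the value was 1.63 (edgeR adjusted p 0.0222). miR-467a-5p and miR-467b-5p, the same counts here, were the 2 members under an unadjusted edgeR p of 0.05, as were 29 of all 542 miRNAs. DESeq2 called 0 members. Between 72 h and 24 h, 0 of 21 members were called in sham kidneys (1.11% of all miRNAs) and 0 in CLP kidneys (0% of all miRNAs). A change of the CLP effect over the 3 times was called for 0 of 21 members, with 0% of all miRNAs called. In these last 3 comparisons 0 members had an unadjusted edgeR p under 0.05, and DESeq2 called 0.

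The later groups, at 24 and 72 h, had other mean levels than the earlier ones, healthy and 4 h. The miR-466 sum averaged 26.6 ± 6.05 TMM-scaled CPM in 16 later whole kidneys against 41.8 ± 12.7 in 12 earlier ones, and the miR-467 sum 62.3 ± 9.79 against 49.4 ± 11. The miR-669 sum averaged 189 ± 22.6 in later and 182 ± 27.4 in earlier kidneys. Among single members, miR-466e-3p averaged 3.61 later against 6.62 earlier, and miR-669c-5p 73.7 against 56.8. The 2 sets also differ in how the deposited table spells the library names, in depth (medians of 5026386.5 counts later and 2212450.5 earlier) and in the share of entries naming no miRNA (1.5% later, 10.9% earlier). Time and these differences cannot be told apart, and no test was made.

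Across compartments, miR-466i-5p ranged further than miR-669c-5p. Pooled over 28 libraries, it reached 668 plain CPM in peritubular capillaries, 111 in venules, 50.5 in arterioles and 28.3 in glomeruli, against 1.36 in whole kidney. It made up 63.4% of the member counts in peritubular capillaries, 22.6% in venules, 19.1% in arterioles and 6.63% in glomeruli, against 0.617% in whole kidney. By mean CPM it ranked 108 of 1474 in peritubular capillaries. Its precursor, Mir466i, is one of the 10 outside Sfmbt2. miR-669c-5p had 145 plain CPM pooled in peritubular capillaries, 149 in venules, 76.3 in arterioles and 199 in glomeruli, against 70.4 in whole kidney, an order that turns when all counts are the denominator. Its share of the pooled member counts was 46.6% in glomeruli and 13.8% in peritubular capillaries, against 32.1% in whole kidney. The sets of mice differed in this: at healthy and 4 h it was 28.2% in glomeruli, 19.3% in peritubular capillaries and 13.7% in venules, against 27.5% in whole kidney.

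**Figure D4:**
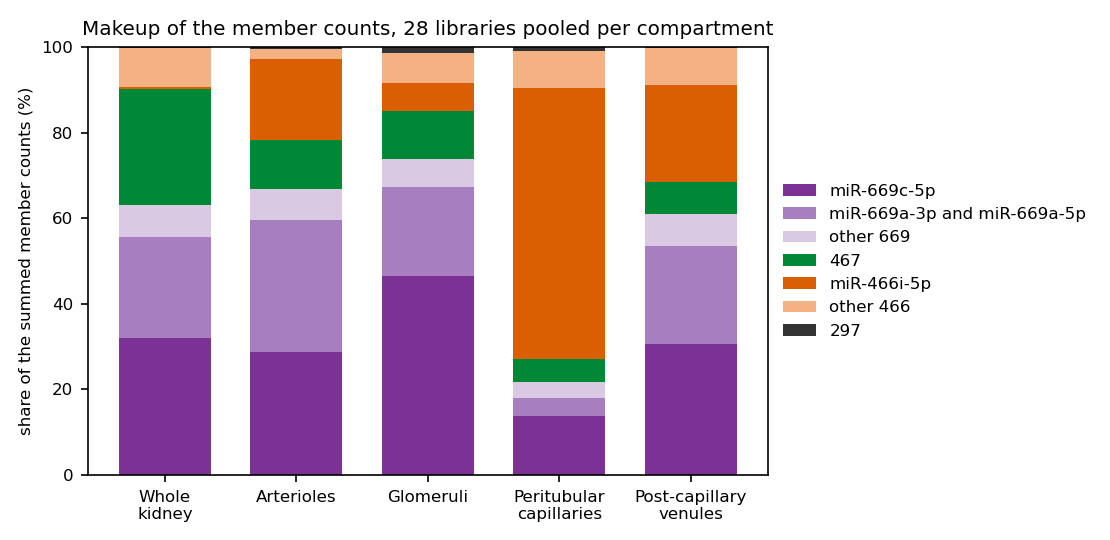
Share (%) of the summed member counts, identical rows added once and 28 libraries pooled, taken by single members and families in each compartment. miR-466i-5p takes 63.4% in peritubular capillaries and 0.617% in whole kidney, while miR-669c-5p takes 13.8% to 46.6% in all 5.

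Since each mouse gave all 5 libraries, whole kidney was set against the 4 microdissected compartments within mice. In healthy mice miR-466i-5p had 1.34, 3.17, 1.05 and 0 plain CPM in whole kidney. The same mice's peritubular capillaries had 1212, 0, 0 and 474, and their arterioles 0, 61.9, 56.5 and 725. Glomeruli had 48.3, 19, 133 and 220 plain CPM, and venules 0, 0, 138 and 644. Whole kidney was at or under 3.17 plain CPM in all 4, while each dissected compartment had at least 1 library above 100. The log2 fold change, whole kidney over microdissected, was -5.80 ± 1.55 (SE, 95% interval -8.98 to -2.63; edgeR adjusted p 0.00324). It was called under all 9 alternative settings, all of which take miRNA counts as the denominator. As CPM of all counts the same whole kidneys had 1.15, 2.84, 0.962 and 0, against 3.99, 0, 0 and 2.98 in peritubular capillaries and 3.85, 0.9, 4.67 and 3.72 in glomeruli, so that whole kidney overlapped both. miR-466i-5p was the one member that passed the filter on low counts there, and it passed through the dissected libraries, where it was high; miR-669c-5p, with 538 counts in healthy whole kidneys, did not pass. The 1 call among 1 member tested is therefore set in part by the filter, and is given beside the 44.2% of all 242 miRNAs called and 14.9% called lower.

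In late sham mice, those at 24 and 72 h pooled into 1 comparison of 8 mice, miR-466i-5p again was lower in whole kidney. The lowest, median and highest plain CPM of 8 whole kidneys were 0, 1.12 and 3.81. They were 115, 652 and 1132 in peritubular capillaries, 0, 71.8 and 10364 in venules, 0, 27.3 and 231 in arterioles and 0, 24.5 and 101 in glomeruli. All 8 peritubular capillary libraries lay above all 8 whole kidneys. The other 3 compartments overlapped whole kidney through libraries with no count. The log2 fold change was -6.39 ± 1.01 (SE; edgeR adjusted p 1.22e-06), the sixth lowest of 316 miRNAs tested, and it was called under all 13 alternatives, at -6.17 without sham 72 h replicate 2. As CPM of all counts, whole kidney had 0 to 3.76 and peritubular capillaries 4.06 to 35.1, without overlap. Here too miR-466i-5p passed the filter only through dissected libraries. Of 6 members tested, 1 was called lower and 0 higher, with 58.2% of all miRNAs called, 19.3% lower and 38.9% higher. miR-669c-5p had a log2 fold change of -0.52, miR-669a-3p -0.37 and miR-669a-5p -0.16 (edgeR adjusted p 0.423, 0.704 and 0.833).

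Over all 28 mice, miR-466i-5p had a higher plain CPM than the same mouse's whole kidney in 24 peritubular capillary libraries, 22 glomerular, 21 venule and 18 arteriole libraries. These are exactly the dissected libraries with any count of it. At their depth these numbers therefore tell detection, and add nothing on its level. Its level rests on the denominator. As CPM of all counts, entries naming no miRNA included, pooled values were 7.73 in peritubular capillaries, 7.69 in venules, 4.92 in arterioles and 4.3 in glomeruli, against 1.3 in whole kidney. In the libraries of healthy and 4 h mice alone, this measure was 2.77 in peritubular capillaries, 2.18 in glomeruli, 1.81 in venules and 1.17 in arterioles, against 2.24 in whole kidney, which was then above all but peritubular capillaries. In the libraries at 24 and 72 h it was 18.2 in peritubular capillaries, 22.4 in venules, 11.9 in arterioles and 8.37 in glomeruli, against 0.961 in whole kidney. The venule value rests on 417 counts, of which 157 were in the library of sham 72 h replicate 2. For miR-669c-5p this denominator put whole kidney highest, with 1.68 in peritubular capillaries, 10.4 in venules, 7.44 in arterioles and 30.2 in glomeruli, against 67.6 in whole kidney. Laser microdissection, lower depth and the larger share of entries naming no miRNA go with the dissected compartments; the compartment and these cannot be told apart.

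**Figure D5:**
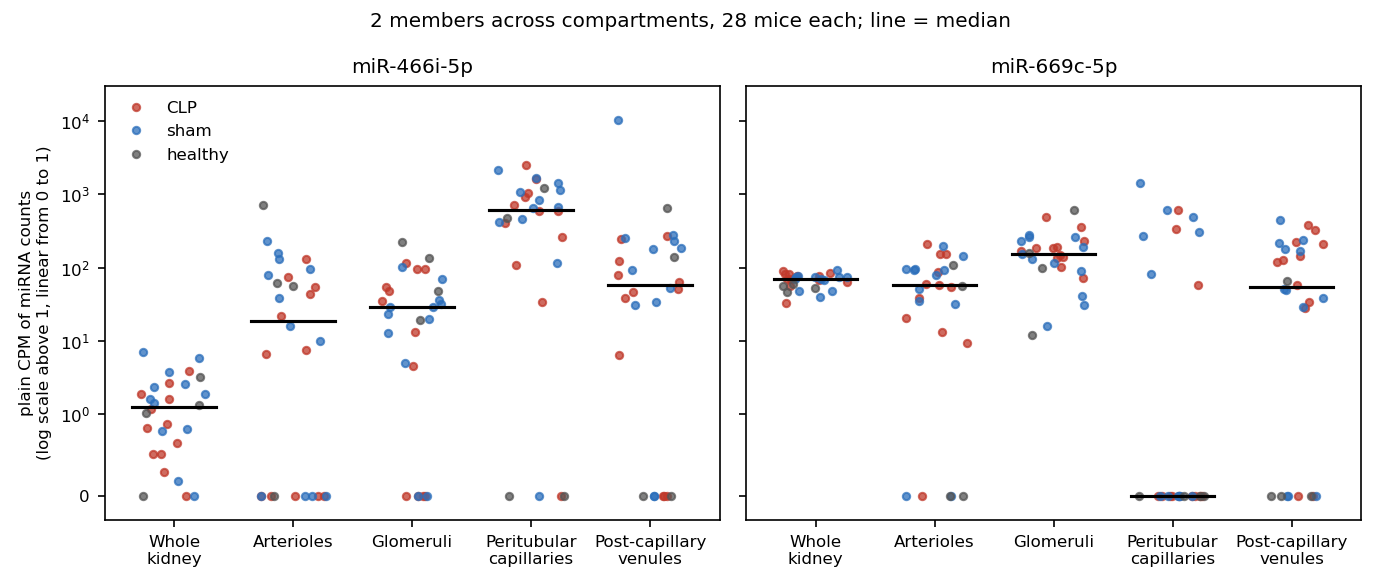
Plain CPM of miR-466i-5p and miR-669c-5p in each of 28 libraries per compartment, coloured by CLP, sham and healthy, on an axis that is linear from 0 to 1 and log above; lines are medians. For miR-466i-5p the medians are 615 in peritubular capillaries and 1.27 in whole kidney; for miR-669c-5p the peritubular capillary median is 0, with counts in 9 libraries.

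The 4 microdissected compartments were then compared with each other within mice, each against the other 3. In late sham mice, peritubular capillaries gave a log2 fold change of 3.08 ± 0.74 for miR-466i-5p (SE; edgeR adjusted p 0.00113). The means run the other way, 453 ± 236 TMM-scaled CPM in peritubular capillaries (n = 8) and 631 ± 2763 in the other 24 libraries, because of the venule library with 157 counts; without that mouse the value was 3.34 (edgeR adjusted p 0.000165). It was called under 12 of 13 alternatives, the exception being the fit that ignores the mouse (1.49, edgeR adjusted p 0.155). The filter on low counts used these same libraries, so passing it was not independent of the high peritubular capillary level. The fit without that filter kept the call. All these fits take miRNA counts as the denominator, while the share of entries naming no miRNA differed between compartments. Of 6 members tested, 1 was called higher and 2 lower, where 47.4% of all miRNAs were called, 18% higher and 29.4% lower. The 2 called lower are 1 count profile, miR-669a-5p, at -2.74 ± 1.02 (SE; edgeR adjusted p 0.0286). Its evidence is 3 counts in 1 of 8 peritubular capillary libraries, against 212 counts in glomeruli, 90 in arterioles and 68 in venules, and 5 of 10 alternatives kept the call. These raw counts come from unlike depths, with medians at 24 and 72 h of 31354 miRNA counts in peritubular capillaries and 459500.5 in glomeruli. Even in the deepest peritubular capillary library, 0 counts would leave up to 60.7 CPM possible, above the glomerular median of 41.3 plain CPM. Absence of miR-669a-5p there is therefore not shown.

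Glomeruli of late sham mice had less miR-466i-5p than the mean of the other 3 compartments, at -3.16 ± 0.90 (SE, edgeR adjusted p 0.00642). This difference was called under all 13 alternatives, which also take miRNA counts as the denominator. That mean includes peritubular capillaries, with a median of 652 plain CPM. Glomeruli and arterioles had close medians, 24.5 and 27.3, and were not tested against each other. This call was 1 of 6 members tested, where 39.8% of all miRNAs were called, 14.2% lower and 25.6% higher. miR-669c-5p had 115, 210 and 279 plain CPM as lowest, median and highest in glomeruli, where all 8 libraries had it. It had 0, 109 and 235 in venules, 0, 64.7 and 143 in arterioles and 0, 40.4 and 607 in peritubular capillaries. The difference of glomeruli from the others was 0.98 ± 0.61 and did not pass (edgeR adjusted p 0.222). Arterioles gave 0 of 6 members called with 40.5% of all miRNAs called, and venules 0 of 6 with 32.9%. In both compartments 0 members had an unadjusted p under 0.05 and DESeq2 called 0. miR-466i-5p was at -0.60 in arterioles and 0.68 in venules (edgeR adjusted p 0.617 and 0.604).

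In healthy mice miR-466i-5p was the only member that passed the filter on low counts for that comparison. It was not called in peritubular capillaries (1.61 ± 1.47), arterioles (0.68 ± 1.19), glomeruli (-0.90 ± 1.17) or venules (-1.40 ± 1.26; log2 fold changes with SE). All miRNAs were called at 39.7%, 23.2%, 28.4% and 20.1% in these 4 comparisons, in that order. edgeR's adjusted p was 0.447, 0.789, 0.638 and 0.51, with 0 under an unadjusted p of 0.05 and 0 called by DESeq2. miR-669c-5p had no count in the 4 healthy peritubular capillary libraries, which held 4215 to 15246 miRNA counts each.

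The order of levels of miR-466i-5p in late sham mice was thus peritubular capillaries, venules, arterioles, glomeruli and whole kidney by median plain CPM. The medians of arterioles (27.3) and glomeruli (24.5) were close. Ranges of neighbours in this order overlapped, those of glomeruli and whole kidney only through a glomerular library with no count. As CPM of all counts, the pooled CLP and sham libraries at 24 and 72 h put venules (22.4) above peritubular capillaries (18.2). Tubular marker miRNAs, pooled over all mice, summed highest among dissected compartments in peritubular capillaries as well, at 26325 CPM. In whole kidney they summed higher still, at 35038 CPM, where miR-466i-5p had 1.36 plain CPM. Their part in the level of miR-466i-5p was not tested.

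The outside miRNAs with alternating runs were set beside these values; the sequence of miR-466i-5p itself was not analysed here. miR-574-5p, which carries the longest run at 13 bases, pooled to 187 plain CPM in peritubular capillaries, 125 in venules, 112 in arterioles and 149 in glomeruli, against 30.6 in whole kidney. In late sham mice it was lower in whole kidney at a log2 fold change of -2.10 (edgeR adjusted p 0.000252), and in healthy mice -1.13 (edgeR adjusted p 0.414). Its peritubular capillary value against the other compartments in late sham mice was -0.99 (edgeR adjusted p 0.119), where miR-466i-5p was called higher. miR-3082-5p had 111 counts and miR-1187 had 31 in all libraries, and neither was tested.

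Another imprinted miRNA cluster, Dlk1-Dio3, was taken as a comparison of 32 miRNAs. In whole kidney 27 of them were tested and 0 were called between CLP and sham at any time, as for the 21 Sfmbt2-family members. Its pooled level was 1155 plain CPM in arterioles, 2023 in glomeruli, 195 in peritubular capillaries and 897 in venules, against 660 in whole kidney. The 2 clusters share libraries, and no test of the difference between them was made.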

How the data were processed

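The labels' protocols name a RealSeq kit for the small RNA libraries. The submitters' processing notes list cutadapt 3.3, Bowtie 1.3.0, FastQC 0.11.9 and MultiQC 1.10 with the builds GRCm38.p6 and GRCm39. The sources used here do not give the counting tool or how reads matching several miRNAs were handled. The authors deposited a table of raw counts per mature miRNA, with no normalization. All 140 columns matched the labels; 10 entries starting with # were left out.

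Each compartment was fitted in edgeR 4.0.16 (R 4.3.3) over 7 groups of 4 mice: TMM scaling, filterByExpr (minimum count 10, minimum total 15), quasi-likelihood F test, Benjamini-Hochberg over all miRNAs tested, threshold 0.05. Compartments were compared within mice, with the mouse as a block; the labels' mouse numbers give that pairing. Replicates are labelled biological. DESeq2 1.42.0, RLE scaling, no filter, merged identical rows, a replicate block and leaving out each replicate were alternatives. The script was tested on simulated data. Family sums were described without a test. Members named are those called, the 12 highest in whole kidney and the 5 highest in each dissected compartment. Members and lists were chosen with earlier results of these data known. TMM moved the median log2 fold change of whole kidney over microdissected libraries to 0.53 in healthy and 0.46 in late sham mice, against 0.25 and 0.07 with RLE.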

Additional observations from a re-analysis of the deposited data

Results flagged for a closer look

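In 6 of 77 groups of 4 whole kidney libraries looked at, 1 sample lay far from the other 3 by Dixon's test at the 95% level, which chance alone does at a rate of 0.05. miR-669a-3p had 20.8 TMM-scaled CPM in CLP 24 h replicate 3, below the others at 32 to 33.9. miR-669a-5p had 16.4 in CLP 72 h replicate 3, below the others at 24.3 to 25.6. miR-467b-5p had 6.33 in CLP 24 h replicate 4, where the others had 11.1 to 11.8, and 10.9 in healthy replicate 4, where the others had 2.34 to 3.46. miR-467a-5p, nearly the same counts, had 6.33 and 10.9 in the same 2 libraries, against 10.9 to 11.8 and 2.34 to 3.46 in the others.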

How the results depend on the processing

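Of 373 recounts of called members under the alternatives, 355 stayed within 1.5 times the count reported. Most reported counts were 0, where this means only that 0 stayed 0, so the share tells little about the calls made. For CLP over sham in venules at 72 h, 1 member was called with DESeq2, 1 with no filter on low counts and 0 to 1 without 1 replicate. Sham 4 h over healthy gave 0 to 2 without 1 replicate. With no filter, whole kidney over microdissected gave 2 in healthy and 3 in late sham mice, glomeruli over the other compartments 1 in healthy and 2 in late sham mice, and peritubular capillaries 1 in late sham mice. That last count was 1 to 3 without 1 replicate. With no replicate block, venules in late sham mice gave 1. Of 344 refits of named log2 fold changes, 322 kept sign and side of the threshold and 10 reversed, each without 1 replicate. Ranges without 1 replicate were, for whole kidney at 4 h, -0.09 to 0.35 for miR-669c-5p (below 0 also at -0.05 and -0.02), -0.20 to 0.17 for miR-669a-3p (also -0.11 and -0.01) and -0.02 to 0.29 for miR-669a-5p. For miR-466i-5p they were -6.60 to 0.44 in venules at 72 h and -0.30 to 1.12 in late sham venules, and for miR-669a-5p -0.60 to 1.18 in late sham whole kidney over microdissected. The cause was not tested. All 66 alternative family sums moved by less than 1 SD. CLP and sham mice share only a replicate number: their deviations correlated above 0.1 in 0 to 3 of 4 pairs per comparison. With the replicate block, 0 members were called in all 15 CLP comparisons, as without it (venules at 72 h: -6.03). CPM of all counts, an alternative added after seeing the data, gave miR-466i-5p 7.73 in peritubular capillaries and 1.3 in whole kidney over all mice, but 2.77 and 2.24 in healthy and 4 h mice, where whole kidney lay above glomeruli (2.18), venules (1.81) and arterioles (1.17). Depth limits the dissected compartments, where 2 to 10 members could be tested.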

Other observations

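Some low members came mostly from 1 library. miR-297a-5p had 55 of its 84 counts, 65.5%, in the glomeruli of CLP 72 h replicate 1. The same library held 19 of 38 counts of miR-466k, 19 of 74 of miR-466b-5p and 19 of 57 of miR-466p-5p.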
